A study of Mus musculus with 12 samples.

Results

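The normal transcriptome of the mouse cochlear duct lining was described at embryonic day 16.5 from 3 control embryos, which gave 6 of the 12 samples of the series. The members are all control samples, 2 from each embryo, and the deposited table holds 1 column of reads and 1 column of FPKM (a level scaled to transcript length and library size) for each embryo. The controls were wild-type (Esrp1+/+) embryos of the C57BL/6 strain, and the series' other embryos lacked Esrp1, an epithelial splicing regulator. Both cochleae of an embryo were pooled, the duct was freed of mesenchyme by hand and with collagenase P (0.1 mg/ml, 15 min at 37 degrees C), and polyA RNA was sequenced. The tissue was therefore a whole dissected epithelium and not a sorted cell type, and the knockout embryos were not used here.

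The cochlear duct is a tube of epithelium that is filled with endolymph. Its floor carries the sensory patch, in which hair cells form under the control of Atoh1 among Sox2-positive progenitors and supporting cells. Beside the patch, the greater epithelial ridge secretes the tectorial membrane. The roof becomes Reissner's membrane, and the lateral wall becomes the stria vascularis, whose marginal cells secrete potassium.

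Of 22869 gene symbols, 11292 (49.4%) were detected, which here means at least 1 FPKM in each of the 3 embryos. Their median level was 6.66 FPKM. Another 1119 symbols reached that level in some embryos only, and 7232 lay under 0.1 FPKM in all 3. At least 10 FPKM in every embryo was reached by 3268 genes, at least 100 FPKM by 128 and at least 500 FPKM by 9. The 10 genes of highest mean level held 8.07% of the summed FPKM, the first 100 held 22.6% and the first 1000 held 49.8%. The reads that fell on genes numbered 16411236, 21568549 and 18472502 in embryos 1, 2 and 3. The detected share of 49.4% over all genes is the background for each count of detected list members below.

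Embryo 1 stood apart from embryos 2 and 3. Among detected genes, 450 differed by more than 2-fold between embryos 1 and 2 and 323 between embryos 1 and 3, against 36 between embryos 2 and 3. Of the 11292 detected genes, 2606 (23.1%) had their highest level in embryo 1 and 6917 (61.3%) their lowest. The summed FPKM was also lower in embryo 1, at 152627, against 170109 and 165572 in embryos 2 and 3. Over all detected genes, the median log2 ratio of embryo 1 to the mean of embryos 2 and 3 was -0.15. The 2 shares, which are set beside lists below, include this offset of the FPKM scale. For transcripts under 500 bases, the median log2 ratio of embryo 1 to the mean of embryos 2 and 3 was -0.55 (73 genes), against -0.12 for transcripts of 2000 to 4000 bases (4442 genes). It was -0.18 for 4000 to 8000 bases (3066 genes) and -0.29 for longer transcripts (547 genes), so it did not follow length in 1 direction. Most levels below are given embryo by embryo.

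The promoters of 4 genes are shown as examples of abundant genes of this tissue with few and with many CG dinucleotides. Otor encodes otoraplin, a secreted protein of the inner ear mesenchyme, Epyc a small proteoglycan, Epcam an adhesion molecule of epithelia, and Eef1a1 the translation elongation factor. Each sequence is the 250 bases before the RefSeq start (GRCm38.p6), on the gene's strand. Capitals mark CG dinucleotides and the motif TATAAA.
Otor, chr2:143078143-143078392, plus strand: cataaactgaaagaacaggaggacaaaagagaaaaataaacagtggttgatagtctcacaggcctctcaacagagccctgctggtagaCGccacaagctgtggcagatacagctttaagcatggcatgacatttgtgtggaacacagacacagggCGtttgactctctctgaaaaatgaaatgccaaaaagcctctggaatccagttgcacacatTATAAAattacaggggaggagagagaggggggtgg
Epyc, chr10:97643818-97644067, plus strand: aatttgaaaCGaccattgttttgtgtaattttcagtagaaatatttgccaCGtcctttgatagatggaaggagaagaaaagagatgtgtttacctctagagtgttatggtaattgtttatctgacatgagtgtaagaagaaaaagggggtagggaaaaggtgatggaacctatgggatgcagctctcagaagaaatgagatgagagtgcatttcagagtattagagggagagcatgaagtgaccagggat
Epcam, chr17:87635729-87635978, plus strand: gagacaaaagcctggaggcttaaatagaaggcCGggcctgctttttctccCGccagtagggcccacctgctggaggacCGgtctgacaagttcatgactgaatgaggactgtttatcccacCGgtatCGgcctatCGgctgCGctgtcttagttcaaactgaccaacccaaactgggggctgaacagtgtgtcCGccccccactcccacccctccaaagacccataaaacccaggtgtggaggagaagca
Eef1a1, chr9:78481725-78481974, minus strand: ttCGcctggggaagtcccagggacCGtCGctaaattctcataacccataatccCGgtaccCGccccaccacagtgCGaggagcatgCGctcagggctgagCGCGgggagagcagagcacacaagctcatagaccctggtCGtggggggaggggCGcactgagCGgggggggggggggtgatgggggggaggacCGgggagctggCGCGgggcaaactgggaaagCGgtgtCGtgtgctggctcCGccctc
The Otor promoter had 2 CG dinucleotides and TATAAA starting 35 bases before the start. The Epyc promoter had 2 CG dinucleotides, the Epcam promoter 8 and the Eef1a1 promoter 18, and none of these 3 held TATAAA in the bases shown.

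The lining's own leading gene was Oc90 (chromosome 15, 65876050 to 65912411, RefSeq on GRCm38), which encodes otoconin-90, the main protein of the otoconial matrix. It was at 1386, 725 and 919 FPKM in embryos 1, 2 and 3 (1010 ± 339, mean ± SD, n = 3) and ranked the fifth of all genes. Without embryo 1 its mean was 822 FPKM at the same rank. Oc90 was the most abundant gene of the roof list and was also far above every other gene of the vestibular and otoconial list.

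The remaining 6 markers of the duct spanned a wide range. Epyc (chromosome 10, 97644068 to 97681908) was at 129, 164 and 157 FPKM and ranked 92. Epcam (chromosome 17, 87635979 to 87651127) was at 106, 61.4 and 77.1 FPKM and ranked 199. Sox2, the transcription factor of prosensory progenitors (chromosome 3, 34649995 to 34652461), was at 19.4, 18.8 and 19.3 FPKM, the narrowest relative spread in FPKM of the 7 markers (coefficient of variation 1.80%). In scaled reads it still differed between embryos beyond counting error (test below). So did all 23 detected supporting and prosensory genes, against 71.1% of the detected genes tested. Otx2, a homeobox factor of the duct roof (chromosome 14, 48656781 to 48667644), was at 12.4, 5.80 and 8.01 FPKM, the widest relative spread of the 7 (38.6%). Atoh1, the hair cell determinant (chromosome 6, 64729125 to 64731245), was at 3.25, 2.86 and 4.27 FPKM. Kcnq1, the potassium channel of strial marginal cells (chromosome 7, 143106877 to 143427050), was at 2.14, 1.45 and 1.56 FPKM. In order of mean level the 7 markers were Oc90, Epyc, Epcam, Sox2, Otx2, Atoh1 and Kcnq1, and the embryos of no marker overlapped with those of the next. Without embryo 1 the order of means was unchanged, and Epcam stood at rank 269 and Otx2 at rank 5630 in place of 4336.

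**Figure D1:**
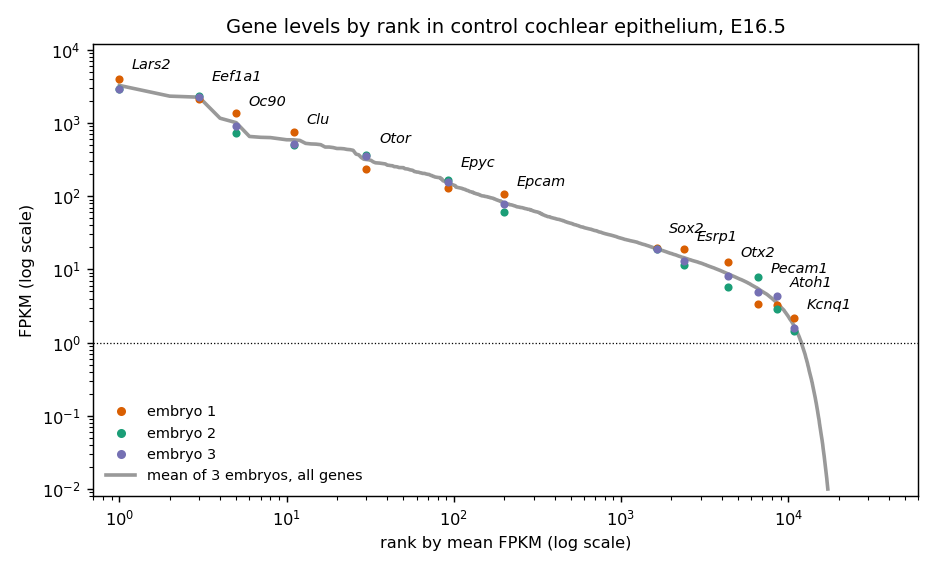
FPKM (log scale) of all genes in order of mean level (log scale), with 13 named genes as 1 point per embryo. The dotted line marks 1 FPKM, and the named genes run from Lars2 at a mean of 3258 FPKM to Kcnq1 at 1.72 FPKM.

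The 25 genes of highest mean level were mostly part of the translation machinery. They included 13 ribosomal protein genes, led by Rps14 (572, 736 and 656 FPKM), Rpl41 (406, 752 and 755 FPKM) and Rplp1 (495, 666 and 665 FPKM). Eef1a1 was at 2251 ± 130 FPKM and Eef2, a second elongation factor, at 514 ± 19.7 FPKM. Actb, the cytoplasmic beta actin, and Hsp90ab1, a chaperone, were at 517 ± 37.3 and 527 ± 24.7 FPKM. Gnb2l1, the ribosome-bound scaffold protein RACK1, was at 505 ± 57.9 FPKM (mean ± SD, n = 3 each). Over all 84 ribosomal protein genes of the table, 81 were detected and together they held 8.0% of the summed FPKM.

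Lars2, the mitochondrial leucyl-tRNA synthetase, was the most abundant gene of the table. It was at 4001, 2873 and 2900 FPKM and took 3.72%, 2.43% and 2.48% of the reads on genes in embryos 1, 2 and 3. The other 16 mitochondrial aminoacyl-tRNA synthetases, a list chosen after the level of Lars2 was seen, had means of 1.24 to 8.02 FPKM. Whether reads of another RNA were counted on Lars2 was not tested.

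Other abundant genes included some that encode secreted or matrix proteins. Clu, which encodes the extracellular chaperone clusterin, was at 751, 500 and 515 FPKM, highest in embryo 1. Otor was at 233, 360 and 356 FPKM, lowest in embryo 1. Lect1, which encodes chondromodulin, was at 330, 211 and 244 FPKM, and Col2a1, the type II collagen, at 268, 207 and 233 FPKM. Outside the naming rule, and chosen after their values were seen, Sparc, a matrix glycoprotein, was at 266 ± 18.3 FPKM and Mdk, the growth factor midkine, at 205 ± 3.83 FPKM.

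Among the 25 highest stood 3 short RNA genes, each inside a longer gene. Mir5121 (rank 2, 2327 FPKM) lies within Rpl13a (423 FPKM), Mir675 (rank 4, 1162 FPKM) within H19 (337 FPKM), and Mir5114 (rank 8, 632 FPKM) within Scd2 (109 FPKM). Their lengths are 74, 84 and 61 bases, so that a given number of reads makes a higher FPKM than on a long transcript, and fragments of the longer transcript cannot be told apart from the short RNA in a polyA library. All 729 short RNA genes together held 4.06% of the summed FPKM.

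Genes of the duct epithelium were expressed almost without exception. Of the 35 members of the list, 34 were detected (97.1%, against 49.4% of all genes), with a median level of 11.2 FPKM against 1.31 FPKM over all genes. After Epcam, the highest were Cldn6, a tight junction claudin (103, 63.5 and 69.0 FPKM), Spint2, a protease inhibitor (87.9, 54.9 and 57.0 FPKM), and Krt18, a keratin of simple epithelia (58.5, 31.9 and 31.9 FPKM). Grhl1, an epithelial transcription factor, was the exception and reached 1.10, 0.811 and 0.951 FPKM. Embryo 1 had the highest level for 33 of the 34 detected members, against 23.1% of all detected genes, and the summed level of the list was 828, 500 and 548 FPKM. In bulk tissue, fewer cells of a type and less RNA per cell cannot be told apart.

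Among claudins, 11 of 25 were detected, led by Cldn6, Cldn9 (42.1, 23.2 and 26.9 FPKM) and Cldn3 (40.5, 21.2 and 22.8 FPKM), barrier proteins of the tight junction. The keratins detected, 4 of 47, were Krt18, Krt8, Krt19 and Krt7, which are known from simple epithelia. Krt8 was at 41.3, 23.2 and 22.9 FPKM and Krt19 at 29.0, 17.3 and 18.8 FPKM.

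The greater epithelial ridge and tectorial membrane list had the highest median of the 20 cell type lists, 26.5 FPKM, with 17 of 18 members detected. Col9a2, a chain of type IX collagen, was at 210, 141 and 165 FPKM, above Epyc, and Crym, a thyroid hormone-binding protein, was at 89.6, 164 and 141 FPKM. Tecta, the large tectorial membrane glycoprotein alpha-tectorin, was at 141, 90.1 and 125 FPKM. The remaining member, Ceacam16, a tectorial membrane protein, was at 0.0157 FPKM in embryo 1 and listed at 0 in the others.

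Supporting and prosensory genes were detected in 23 of 24 cases, with a median of 7.30 FPKM. The calcium-binding protein gene S100a1 was at 31.1, 27.1 and 28.6 FPKM, Sox9 at 26.1, 23.6 and 25.8 FPKM and the cell cycle inhibitor Cdkn1b at 22.0, 21.9 and 24.2 FPKM. Notch1, the receptor through which hair cells restrain their neighbours, was at 25.4, 19.7 and 20.7 FPKM. The summed level of the list moved little between embryos (279, 255 and 270 FPKM). Of the 23 detected members, 15 were nonetheless highest in embryo 1, against 23.1% of all detected genes. In embryo 2, 18 of the 23 were lowest, against 2081 of all 11292 detected genes.

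Hair cell genes were much less complete. Of 39 members, 12 were detected (30.8%), and the median was 0.610 FPKM. The most abundant were Pvalb, a calcium buffer also made by neurons (4.61, 27.4 and 18.1 FPKM), the unconventional myosin gene Myo6 (10.2, 13.0 and 12.8 FPKM), the bundle protein gene Cib2 (7.58, 12 and 11.1 FPKM) and Ush1c, the scaffold harmonin (10.6, 5.67 and 6.38 FPKM). The early genes Atoh1 and Pou4f3, the latter a transcription factor of young hair cells (6.17, 4.93 and 6.56 FPKM), were detected in every embryo. The transcription factor genes Gfi1 (0.470, 0.564 and 0.664 FPKM) and Barhl1 (0.424 FPKM or less in each embryo) of the same list were not detected. Several genes of mature hair cells, named after their values were seen, were near 0: Tmc1, a subunit of the transduction channel, was at 0.0411, 0.117 and 0.170 FPKM, and Strc, the stereocilin gene, at 0, 0 and 0.0151 FPKM. Other members of the list, Myo7a (2.73, 1.70 and 2.44 FPKM) and Pcdh15 (2.93, 2.24 and 3.08 FPKM) among them, were detected. Gfi1, Barhl1, Myo7a and Pcdh15 were also named after their values were seen. Whether the list divides by stage was not tested.

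Roof genes were detected in 10 of 10 cases. Below Oc90 came Enpep, an aminopeptidase (29.1, 16.6 and 20.3 FPKM), the homeobox gene Lmx1a (13.4, 9.11 and 10.3 FPKM) and Otx2. The median of the list was 4.70 FPKM. The outer sulcus and lateral duct list, with 10 of 12 members detected, was led by Clu, followed by the zinc finger factor Gata2 (51.0, 37.1 and 32.2 FPKM), the ligand Bmp4 (21.0, 19.2 and 20.5 FPKM) and the BMP antagonist Fst (21.1, 15.1 and 16.7 FPKM). Foxi1, a factor of ion-transporting cells, was at 0.0389 FPKM or less in each embryo.

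Of the strial marginal cell list, 13 of 16 genes were detected, with a median of 5.01 FPKM. Its abundant members included Atp1b1, the beta subunit of the sodium pump (32.7, 27.9 and 31.0 FPKM), the transcriptional co-activator gene Eya4 (19.8, 18.1 and 23 FPKM) and the endocytic receptor gene Lrp2 (23.5, 14.6 and 16.5 FPKM). The defining genes of marginal cells were low: Kcne1, the partner of Kcnq1, was at 1.92, 1.21 and 1.44 FPKM, and the barttin gene Bsnd at 0.719, 0.413 and 0.447 FPKM. Among the vestibular and otoconial genes, 4 of 9 were detected (44.4%, near the 49.4% of all genes). Otol1, the otolin gene, was at 18.9, 11.9 and 14.5 FPKM and Hmx3, a homeobox factor of the vestibular ear, at 8.69, 3.40 and 4.46 FPKM, while Otop1 and Nox3, needed for otoconia, were at 0.0120 FPKM or less in each embryo.

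**Figure D2:**
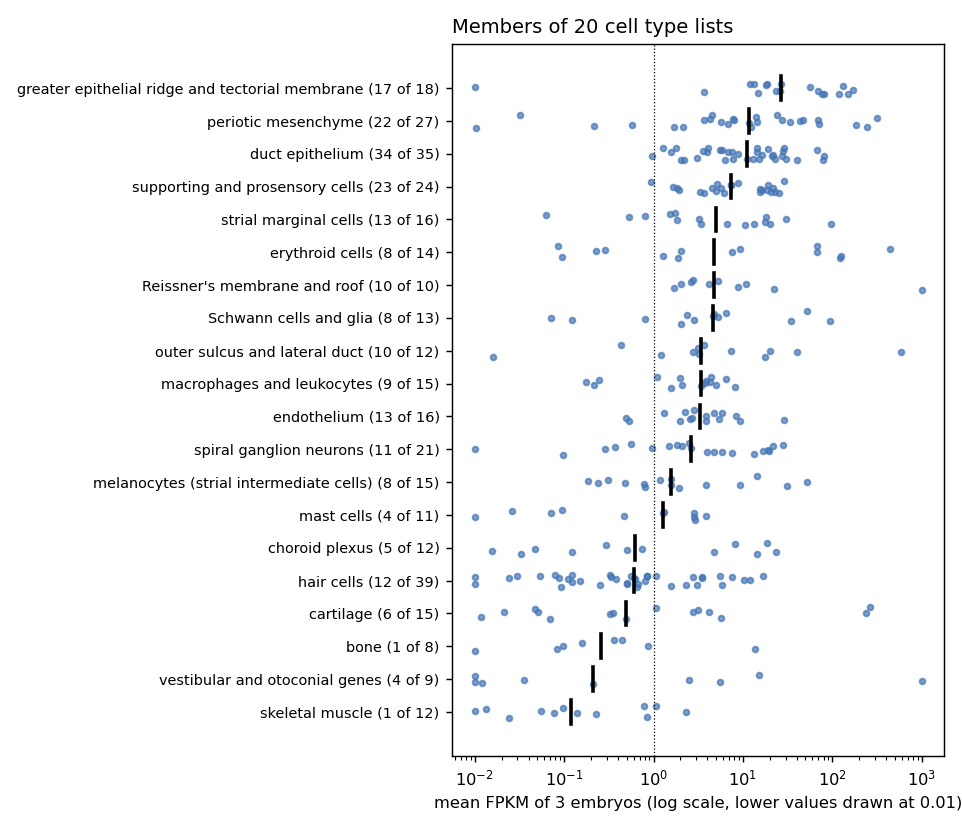
Mean FPKM of 3 embryos (log scale, values under 0.01 drawn at 0.01) of the members of 20 cell type lists, 1 point per gene, with the median as a black bar and the number detected of those in the table beside each name. The dotted line marks 1 FPKM. The greater epithelial ridge list has the highest median (26.5 FPKM) and skeletal muscle the lowest (0.119 FPKM, and 0.0465 FPKM without embryo 1).

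Genes of the surrounding mesenchyme were also plentiful. Of 27 members of the periotic mesenchyme list, 22 were detected with a median of 11.8 FPKM, close to the 11.2 FPKM of the duct epithelium list. Behind Otor came the intermediate filament gene Vim (239, 261 and 236 FPKM) and the collagen-binding proteoglycans Lum (205, 181 and 173 FPKM) and Dcn (66.4, 68.8 and 78.9 FPKM). Pou3f4, the transcription factor that defines periotic mesenchyme, was named after its value was seen and was at 17.6, 42.3 and 41.0 FPKM. The defining fibrocyte gene Otos was at 0.0309 FPKM in embryo 1 and listed at 0 in the others. Embryo 1 had the lowest level for 19 of the 22 detected members, against 61.3% of all detected genes, and the summed level was 938, 1284 and 1264 FPKM. The part of carried-over mesenchyme in these levels was not tested.

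Cartilage and bone genes were split. Besides Lect1 and Col2a1, the cartilage list had Matn4, a matrix adaptor (4.62, 5.75 and 6.79 FPKM), and Sox5, a chondrogenic factor (4.11, 4.15 and 4.11 FPKM), and 6 of 15 members were detected. The cartilage genes Acan, for aggrecan, and Col10a1, for type X collagen, were at 0.576 FPKM or less in every embryo. Of 8 bone genes only Spp1, the osteopontin gene, was detected (2.06, 25.9 and 12.8 FPKM).

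Neuronal genes differed widely between the embryos. Of 21 members, 11 were detected (52.4%, near the 49.4% of all genes). Every one of the 11 was lowest in embryo 1, against 61.3% of all detected genes. Nefl, a neurofilament subunit, was at 4.41, 48.7 and 30.4 FPKM, Stmn2, a microtubule regulator of neurites, at 4.27, 38.5 and 22.3 FPKM, Nefm, a second neurofilament, at 2.54, 37.6 and 19.1 FPKM, and Tubb3, the neuronal tubulin, at 5.13, 35.3 and 17.5 FPKM. The summed level was 34.9, 267 and 159 FPKM, lowest in embryo 1 and highest in embryo 2. Neurog1, the factor that starts ganglion neurons, was listed at 0 in every embryo. Schwann cell and glial genes (8 of 13 detected) were led by Fabp7, a fatty acid carrier of glial precursors (26.2, 162 and 96.9 FPKM), Sox10, also a factor of the otic epithelium and of melanocytes (65.7, 46.1 and 43.1 FPKM), and the neuregulin receptor gene Erbb3 (39.6, 31.4 and 32.0 FPKM). Fabp7 followed the neuronal genes in being lowest in embryo 1, and Sox10 and Erbb3 were highest there.

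Genes of vessels, leukocytes and red blood cells were also detected. Of 16 endothelial genes, 13 were detected, all lowest in embryo 1 (against 61.3% of all detected genes), among them the surface sialomucin gene Emcn (14.8, 36.7 and 34.1 FPKM), the endothelial cadherin gene Cdh5 (6.56, 13.3 and 8.09 FPKM) and the secreted factor gene Egfl7 (5.83, 11 and 8.10 FPKM). Of 15 macrophage and leukocyte genes, 9 were detected, also all lowest in embryo 1 (against the same 61.3%), with lysozyme Lyz2 (2.64, 12.1 and 9.79 FPKM) and the complement gene C1qb (2.47, 7.88 and 8.93 FPKM) the highest. The pan-leukocyte gene Ptprc was at 0.363 FPKM or less. Mast cell genes were detected in 4 of 11 cases, at most at 4.99 FPKM (Kit, in embryo 2). The adult beta globin gene Beta-s, the table's name for Hbb-bs, was among the 25 highest genes at 263, 673 and 397 FPKM. Erythroid genes were detected in 8 of 14 cases (57.1%, against 49.4% of all genes), and their summed level was 449, 1321 and 770 FPKM. Hbb-b1 and Hbb-b2 had identical reads, as did Hba-a1 and Hba-a2, so the members of these pairs cannot be told apart. The summed level takes in both members of each pair. Hba-a1 had 4555, 11380 and 4894 reads but 24.8, 108 and 69.9 FPKM, so its reads and FPKM were not in proportion across embryos.

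Melanocyte genes, which in the cochlea mark future intermediate cells of the stria, were detected in 8 of 15 cases (53.3%, near the 49.4% of all genes). After Sox10, the endothelin receptor gene Ednrb (9.06, 52.2 and 31.2 FPKM) was the highest, followed by the melanin enzyme gene Dct (18.1, 11.6 and 13.7 FPKM) and Pmel, the melanosome fibril gene (12.8, 8.01 and 6.88 FPKM). Of the 8 detected, 5 were highest in embryo 1, Dct and Pmel among them, against 23.1% of all detected genes. The other 3, Ednrb among them, were lowest there, against 61.3%. The part of other cells in the level of Ednrb was not tested. Choroid plexus genes were detected in 5 of 12 cases, with Calml4 (26.4, 22.1 and 22.4 FPKM) and the chloride channel-like gene Clic6 (23.9, 14.2 and 18.2 FPKM) the highest, and skeletal muscle genes in 1 of 12 (Acta1, 2.90, 2.35 and 1.69 FPKM).

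**Figure D3:**
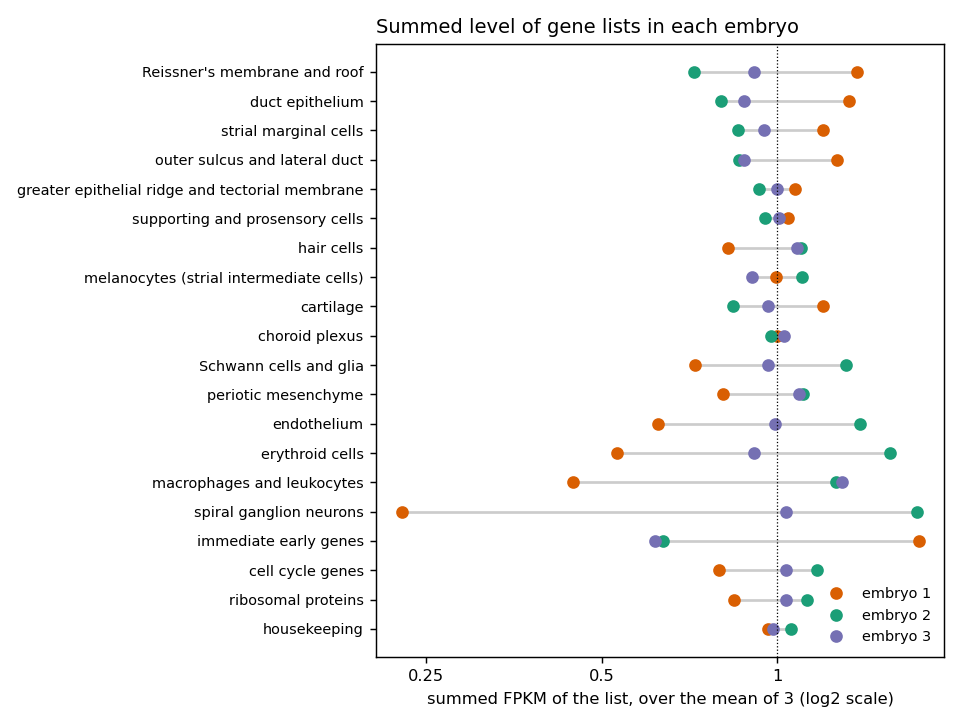
Summed FPKM of 20 gene lists in each embryo, relative to the mean of the 3 embryos (log2 scale), 1 point per embryo joined by a grey line. Embryo 1 is highest in the roof (1464 against 771 and 977 FPKM), duct epithelium and immediate early lists and lowest in the neuron, macrophage, erythroid and endothelium lists. Most of the roof sum is Oc90 alone (1386, 725 and 919 FPKM), and 8 of the 10 roof genes are highest in embryo 1.

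Transcription factors of the otic lineage were detected in 28 of 34 cases. The most abundant were the homeobox gene Irx3 (62.0, 53.4 and 49.5 FPKM), Sox10, Gata3, a zinc finger factor of the prosensory duct (52.7, 43.2 and 42.6 FPKM), and Gata2. Of the 28, 23 were highest in embryo 1, against 23.1% of all detected genes. Named after their values were seen, Pax8, an early otic gene, was listed at 0 in each embryo, while its relative Pax2 was at 7.13, 3.90 and 4.08 FPKM. None of 39 Hox genes was detected, and Hoxa2 was the highest at 0.742, 1.09 and 0.868 FPKM. Among Sox genes, 12 of 19 were detected, with Sox4 (41.0 ± 4.93 FPKM) and Sox11 (36.4 ± 4.39 FPKM), both factors of progenitors, behind Sox10. Of the T-box genes, Tbx18, a mesenchymal factor, was at 12.1, 29.5 and 30.5 FPKM, and Tbx2 and Tbx1, factors of the otic epithelium, were at 22.6, 13.3 and 15.3 FPKM and at 12.8, 8.14 and 9.90 FPKM. Tbx18 was lowest in embryo 1 and the other two were highest there. Foxp4 led the 18 of 43 forkhead genes that were detected, at 27.6, 18.8 and 18.99 FPKM, ahead of Foxo4 (17.6, 14.3 and 15.8 FPKM) and the mesenchymal Foxc1 (6.93, 15.0 and 14.6 FPKM), which was lowest in embryo 1.

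Signalling families differed in the share of members detected, beside 49.4% of all genes. It was 27.3% for FGF ligands and 26.3% for Wnt ligands. For BMP and TGF-beta ligands it was 55% and for Notch receptors and ligands 55.6%, both near the share of all genes. Of 22 FGF ligands, 6 were detected, led by Fgf10 (12.1, 11.4 and 12.9 FPKM), a ligand made by the floor of the duct, Fgf9 (4.59, 3.2 and 4.38 FPKM), Fgf11 (3.67, 3.34 and 4.68 FPKM) and Fgf13 (1.71, 3.21 and 2.22 FPKM). All 5 FGF receptor genes were detected, with Fgfr1 (17.4, 16.5 and 17.7 FPKM) the most even. Of 19 Wnt ligands, 5 were detected, with Wnt5a (21.7, 20.5 and 23.2 FPKM), a ligand of planar polarity, and Wnt7b (20.3, 12.2 and 12.7 FPKM) far above Wnt7a (5.36, 3.35 and 3.68 FPKM). Among BMP and TGF-beta ligands, 11 of 20 were detected, and Tgfb2 (52.9, 38.4 and 48.6 FPKM) was ahead of Bmp7 (21.6, 18.9 and 23 FPKM). Of 9 Notch pathway receptors and ligands, 5 were detected: Notch1, Jag1 (19.5, 17.0 and 18.9 FPKM), Notch2, Notch3 and Jag2. The Delta ligands Dll1 and Dll3 were at 0.873 FPKM or less in each embryo.

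Matrix and transport families were led by a few members each. Of 43 collagen genes, 26 were detected, led by Col2a1 (236 ± 30.8 FPKM), Col9a2 (172 ± 35.2 FPKM) and Col9a3 (77.0 ± 11.6 FPKM). Laminin genes (7 of 11 detected) were led by Lamb1 (46.6 ± 2.95 FPKM) and integrins (16 of 32) by Itgb1 (53.0, 66.6 and 69.3 FPKM), both parts of the contact with the basement membrane. The connexin Gjb2, which joins supporting cells, was at 68.8, 49.5 and 49.7 FPKM, ahead of Gja1 (9.30, 15.0 and 23 FPKM). Of 11 aquaporins, 3 were detected: Aqp1 (9.76, 15.7 and 18.1 FPKM), Aqp11 (8.78, 6.06 and 6.73 FPKM) and Aqp5 (3.25, 1.84 and 2.53 FPKM). Potassium channel subunits were sparse, with 12 of 92 detected and Kcnk1 the highest (11.2, 7.28 and 7.30 FPKM). Solute carriers were detected in 149 of 327 cases (45.6%, near the 49.4% of all genes). Mitochondrial carriers were the highest of them (Slc25a4, 98.9, 146 and 146 FPKM).

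Members of the deafness gene list were detected in 56 of 81 cases (69.1%), with a median of 3.13 FPKM over the 81. The highest members of this list were Otor, which is also in the periotic mesenchyme list, Col2a1, Crym and Tecta. Those under 1 FPKM in all 3 embryos numbered 20 and included Otof, the synaptic protein otoferlin (0.300, 0.291 and 0.420 FPKM), which was named after its value was seen. Splicing regulators were detected in 21 of 28 cases, led by Hnrnpa2b1 (85.7, 102 and 110 FPKM) and Ptbp1 (90.6, 84.7 and 75.1 FPKM), and Esrp1 was at 19.2, 11.4 and 12.9 FPKM.

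All 25 cell cycle genes were detected, with a median of 10.2 FPKM. Top2a, a topoisomerase of dividing cells, was at 22.7, 38.9 and 33.2 FPKM, Mcm6, a replication helicase subunit, at 22.8, 27.3 and 24.1 FPKM, the replication clamp gene Pcna at 20.1, 25.4 and 21.4 FPKM and the proliferation marker Mki67 at 10.6, 21.9 and 19.4 FPKM. Of the 25, 24 were lowest in embryo 1, against 61.3% of all detected genes. The cell cycle inhibitor Cdkn1c was at 97.3, 77.8 and 101 FPKM, higher than each of the 25.

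Across all 14115 genes with enough reads, 9694 (68.7%) differed between the 3 embryos by more than counting error (chi-square test of homogeneity, TMM-scaled library sizes, Benjamini-Hochberg adjusted p under 0.05). Without embryo 1 the number was 4761. The size of the spread was given by the biological coefficient of variation (BCV) of edgeR, the spread that remains after counting error, shrunken towards a trend. Over all genes the common BCV was 21.0%, and 11.4% without embryo 1.

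The 10 genes of largest BCV, among 6550 genes with at least 5 FPKM and 300 reads, fell into immediate early genes, neuronal genes and Spp1. Fos, a transcription factor induced within minutes of stimulation, was at 29.9, 1.56 and 1.61 FPKM (BCV 99.4%), and Egr1, another such factor, at 65.3, 3.88 and 3.43 FPKM (97.8%). Zfp36 and Junb, also induced early, were at 14.1, 2.64 and 2.16 FPKM and at 12.4, 3.02 and 1.70 FPKM. These 4 genes were highest in embryo 1. Nefm, Nefl, the neuronal intermediate filament gene Ina (1.59, 26.4 and 12.7 FPKM), the microtubule regulator Stmn4 (0.942, 12.8 and 9.12 FPKM), Mdga1, a cell surface protein of neurons (0.978, 16.5 and 8.21 FPKM), and Spp1 were lowest there. Of the immediate early list, 20 of 28 genes were detected, 17 of them highest in embryo 1 (against 23.1% of all detected genes), and its summed level was 330, 120 and 117 FPKM. After Egr1, its highest members were Ier2 (41.3, 15.0 and 12.9 FPKM), Jund (26.4, 21.0 and 18.4 FPKM) and Jun (19.1, 14.8 and 13.7 FPKM). Heat shock genes were detected in 5 of 8 cases, and the inducible Hspa1a, at 0.148 FPKM or less, was not among them. The part of dissection or handling in these differences was not tested.

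The 5 genes of smallest BCV were Nedd4, a ubiquitin ligase (259, 298 and 297 FPKM), Ywhae, a 14-3-3 protein (179, 211 and 205 FPKM), the RNA-binding protein genes Hnrnpa0 (64.2, 72.0 and 73.1 FPKM) and Sfpq (62.0, 69.1 and 67.6 FPKM), and Atp5b, a subunit of the mitochondrial ATP synthase (194, 226 and 215 FPKM). Their BCVs lay between 11.53% and 11.54%. These are shrunken values, so they give neither the measured spread of each gene nor a firm order among the 5. In reads scaled to library size, the embryos were closer together than in FPKM for each of the 5. Nedd4 was at 3463, 3506 and 3548 scaled reads in embryos 1, 2 and 3, and Hnrnpa0 at 457, 454 and 461. Of the 5, Hnrnpa0 (adjusted p = 0.618) and Sfpq (adjusted p = 0.195) did not pass the chi-square test.

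Promoter sequence differed with level. A RefSeq promoter of 300 bases, from 250 before to 50 after the start, was matched for 17328 genes. Genes with a read were put in 10 equal groups by mean level, from group 1 (lowest) to group 10 (highest). Genes with no read were kept apart. The highest mean level among them was 1.54 FPKM, so reads and FPKM did not match for all of them. The ratio of CG dinucleotides observed to those that the base content gives had a median of 0.154 in genes with no read. It was higher in each further group up to group 8, from 0.266 to 0.824, and was 0.828 in group 10. A ratio of at least 0.6 was found in 4.39% of genes with no read and in 82.4% of group 10. TATAAA on either strand anywhere in the 300 bases was found in 13.0% of all promoters, and on the gene's strand starting 40 to 20 bases before the start in 2.79%. The latter share was 6.30% in genes with no read, 0.586% in groups 8 and 9 and 1.76% in group 10. Among the 100 highest genes with a promoter, 4 held it there: Otor, Vim, the histone gene H3f3b and Hbb-b1. A match is only a run of letters and does not show a used site.

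**Figure D4:**
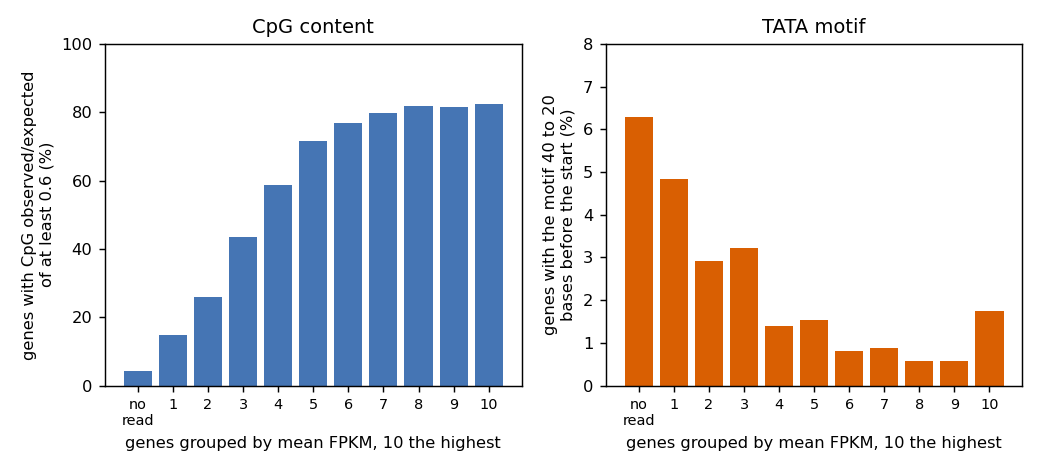
Share of genes (%) with a CG observed over expected ratio of at least 0.6 (left) and with TATAAA on the gene's strand starting 40 to 20 bases before the start (right), for genes with no read and for 10 groups of genes by mean FPKM. The left share is 4.39% in genes with no read and 82.4% in group 10, and the right share is lowest in groups 8 and 9.

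The same ratio was counted in gene lists, with no test between them, and 49.6% of all 17328 promoters reached 0.6, as did 71.7% to 82.4% in groups 5 to 10. Of detected ribosomal protein genes with a promoter, 53 of 60 had a ratio of at least 0.6, as had 14 of 19 otic transcription factors and 13 of 17 supporting and prosensory genes. Of the greater epithelial ridge and tectorial membrane genes, 3 of 13 did, and of the erythroid genes 0 of 7. The Epyc ratio over the 300 bases was 0.220 and the Otor ratio 0.121, against 0.454 for Epcam and 0.697 for Eef1a1.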

How the data were processed

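Per the labels, RNA-seq was made from the cochlear epithelium of 3 control embryos at embryonic day 16.5, with 2 libraries per embryo from polyA RNA and a directional kit. The deposited read counts are whole reads per RefSeq transcript with no normalisation, 1 column per embryo, per the file headers. Deposited FPKM, scaled by definition to transcript length and library size, stand in 1 column per embryo, per the file headers. Reads on genes were 41.6%, 45.6% and 45.1% of the library sizes that reads, FPKM and annotated lengths imply, and which library size the authors used is not stated. The build was mm10 and edgeR was used, per the submitters' processing notes. Which aligner and counter were run is not given in the sources used here, nor whether strand was used, so overlapping genes on opposite strands may share reads. A further 14 columns of sample values were not used here. Both libraries of an embryo stand together in its column, so that n is 3 embryos.

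Each of 22869 gene symbols was represented by the transcript row with most reads over the 3 embryos, of 28644 rows. Levels between genes were compared in FPKM, as mean ± SD of 3 embryos, and genes with at least 1 FPKM in every embryo were called detected. In 581 of 11136 detected genes (5.22%), the length that reads and FPKM imply differed by more than 2-fold from the annotated length, so their FPKM are less certain. Gapdh (328 reads) and Ppia (742 reads) were low in the table although they are commonly abundant.

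Spread between embryos was tested with edgeR 4.0.16 under R 4.3.3, on genes kept by filterByExpr (minimum count 10), by a chi-square test of the counts over the 3 embryos with TMM-scaled library sizes and Benjamini-Hochberg adjustment at 0.05. It was tested on simulated data. Alternatives used DESeq2 1.42.0 size factors, other rows, filters and embryos left out. Read numbers cover counting error only, and PCR copies are not marked. Positions and promoters are from RefSeq on GRCm38.p6, the assembly that mm10 represents. Members and lists were chosen with earlier results of these data known. Named genes are the 25 of highest mean FPKM, up to 4 leading members of each list, up to 3 of each family, the 7 markers, and the 10 largest and 5 smallest BCV, of which 1 is not reported here. Others are said to be chosen after their values were seen, or are defining, undetected or near-0 members of a list.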

Additional observations from a re-analysis of the deposited data

How the results depend on the processing

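The number of detected genes (11292) stayed within 1.5 times under a row choice by FPKM, TPM, 0.5 FPKM, a minimum of 10 reads and without short RNA genes (11174 to 13798), and without 1 embryo it was 11356 to 11787. At 5 FPKM it was 6295. The share of summed FPKM in the first 100 genes (22.6%) was 19.8% without erythroid and ribosomal protein genes, 19.2% without Lars2 and short RNA genes, and 22.4% to 22.9% without 1 embryo. Both settings without short RNA genes were chosen after seeing the data. The genes beyond counting error (9694) numbered 9700 with DESeq2 size factors, 9724 with library totals and 10348 without a filter, and 4761 to 8145 without 1 embryo, lowest without embryo 1. The common BCV (21.0%) was 11.4% to 26.9% without 1 embryo, lowest without embryo 1, and 22.4% without a filter. Of 20 cell type medians, leaving out members shared with another list moved 2 by more than the SD between embryos, melanocytes to 1.17 FPKM and Schwann cells to 3.75 FPKM, and leaving out embryo 1 or 2 so moved cartilage to 0.581 or 0.416 FPKM. Within that SD but by over 1.5 times, vestibular and otoconial genes moved from 0.210 to 0.123 FPKM without shared members, neurons from 2.65 to 1.75 FPKM without embryo 2, and skeletal muscle from 0.119 to 0.0465 FPKM without embryo 1 and to 0.0777 FPKM as a mean of logs. The cause was not tested. No paired analysis was possible because only 1 group was analysed. Genes at 100 FPKM or more had a median counting error of 0.956% beside a median BCV of 13.1%, and tested genes under 1 FPKM 14.0% beside 29.2%.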

Other observations

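Several imprinted genes, which are expressed from 1 parental copy and often linked to fetal growth, were abundant in this bulk tissue. Whether their RNA came from the epithelium or from carried-over mesenchyme was not tested. The list of 26 genes was drawn up after the level of H19 was seen, so it is a description with no test. Of the 26, 20 were detected (76.9%, against 49.4% of all genes). Their median was 6.55 FPKM over the 26, beside 6.66 FPKM over all detected genes, and 6 reached a mean of 100 FPKM. H19, a long noncoding RNA, was at 343, 296 and 371 FPKM (rank 28), Gnas, the stimulatory G protein subunit, at 292, 324 and 309 FPKM (rank 32), and Nnat, neuronatin, at 127, 172 and 164 FPKM (rank 91). Igf2, the fetal growth factor beside H19, was at 125, 97.1 and 123.4 FPKM, and Grb10, an inhibitor of insulin receptor signalling, at 106, 104 and 110 FPKM. By contrast, Meg3 (1.94, 2.13 and 2.89 FPKM) and Dlk1 (1.54, 1.29 and 1.66 FPKM), neighbours in another imprinted region, were low. The summed level of the list was 1262, 1312 and 1416 FPKM, so the embryos differed less than in the neuronal or erythroid lists.

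Among long noncoding RNAs, 128 of 1348 were detected (9.50%), against 54.0% of protein-coding genes. Malat1, a nuclear RNA, was at 176, 108 and 164 FPKM. Xist, the RNA of the inactive X chromosome, was at 35.5, 31.5 and 42.6 FPKM, and the 4 Y-linked genes measured were at 0.0852 FPKM or less in each of the 3 embryos.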
